A study of Rattus norvegicus with 9 samples.

Results

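The genes described here make cholesterol and fatty acids in rat kidney, together with the SREBP (sterol regulatory element binding protein) factors that control them and a few genes that move sterol. They are 31 genes chosen by symbol, from acetoacetyl-CoA thiolase to malic enzyme, out of 19367 genes in the deposited table. Of the 31, 30 had a row; Mvd, which makes isopentenyl diphosphate, had none. After a filter on low values, 28 were tested, and Scd and Elovl6 were too weakly expressed for it. Kidney RNA was sequenced in 9 libraries, in 3 groups of 3. The first group was spontaneously hypertensive rats (SHR, an inbred strain that develops high blood pressure) given dapagliflozin at 10 mg/kg by mouth each day for 8 weeks, called treated SHR below. Dapagliflozin inhibits SGLT2, the glucose transporter of the early proximal tubule. The second group was SHR without the drug, and the third was Wistar-Kyoto rats (WKY, a normotensive strain) without the drug. All rats were 3 months old at the start, and no genetic change was named for any group. The protocol gives water to both undosed groups while another label gives saline, and the strain label reads Wistar-Kyoto for all 9 libraries, so groups follow the sample titles. The labels do not tie a library to an animal, so p-values measure the spread between libraries, which may be partly technical.

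Cells build cholesterol from acetyl-CoA through mevalonate, farnesyl diphosphate, squalene and lanosterol. When sterol in the endoplasmic reticulum is low, the escort protein Scap carries SREBP to the Golgi, where it is cut, and the released part turns on sterol and fatty acid genes; Insig proteins hold the complex back when sterol is high. The kidney makes cholesterol of its own for its membranes and also takes sterol up from lipoproteins.

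Promoter windows, 250 bases before to 50 after the annotated start, were available for 24 of the 31 genes. They are shown for 4 genes: Lss and Sc5d, which measured less in every SHR library than in every WKY library, and Srebf2 and Cyp51, whose means were highest in treated SHR. Sqle, which also measured less in every SHR library than in every WKY library, and Fdft1 had no window. Other members, among them Srebf1 and Scap, also had their highest mean in treated SHR. Sequences are from RefSeq on the GRCr8 build, a reference rat genome and not the sequence of SHR or WKY. Capitals mark matches, on either strand, to 4 motifs: GGGCGG, called the GC box, the CCAAT box, the E-box with the letters CACGTG, and TCACNCCA. The last of these is the core of the sterol element TCACNCCAC and lies inside it.
Lss, chr20:12118181-12118480, minus strand: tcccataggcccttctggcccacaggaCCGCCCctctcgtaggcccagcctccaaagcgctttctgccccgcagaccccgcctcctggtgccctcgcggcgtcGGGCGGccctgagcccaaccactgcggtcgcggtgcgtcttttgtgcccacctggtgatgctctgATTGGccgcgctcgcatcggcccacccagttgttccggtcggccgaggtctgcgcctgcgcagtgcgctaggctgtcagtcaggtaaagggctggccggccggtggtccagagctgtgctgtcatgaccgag
Sc5d, chr8:51538228-51538527, minus strand: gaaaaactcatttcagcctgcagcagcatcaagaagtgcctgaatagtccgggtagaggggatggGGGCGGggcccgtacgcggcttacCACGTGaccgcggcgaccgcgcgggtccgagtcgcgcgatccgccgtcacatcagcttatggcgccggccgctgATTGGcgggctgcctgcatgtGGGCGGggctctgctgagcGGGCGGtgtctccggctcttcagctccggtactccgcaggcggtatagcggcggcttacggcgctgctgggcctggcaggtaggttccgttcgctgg
Srebf2, chr7:115543057-115543356, plus strand: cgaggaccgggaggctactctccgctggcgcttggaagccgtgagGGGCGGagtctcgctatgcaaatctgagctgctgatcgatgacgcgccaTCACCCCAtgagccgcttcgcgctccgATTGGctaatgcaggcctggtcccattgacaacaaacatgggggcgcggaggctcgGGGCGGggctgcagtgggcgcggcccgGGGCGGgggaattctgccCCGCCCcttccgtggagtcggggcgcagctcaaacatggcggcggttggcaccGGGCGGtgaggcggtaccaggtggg
Cyp51, chr4:30991443-30991742, plus strand: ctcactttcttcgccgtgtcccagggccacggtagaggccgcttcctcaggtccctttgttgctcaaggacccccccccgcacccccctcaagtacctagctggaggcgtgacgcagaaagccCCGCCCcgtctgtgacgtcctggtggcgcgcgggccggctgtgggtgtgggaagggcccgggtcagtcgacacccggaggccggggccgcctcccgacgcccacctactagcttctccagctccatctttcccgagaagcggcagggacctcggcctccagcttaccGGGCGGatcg
The Srebf2 window held 1 match to the sterol core, starting 156 bases before the start site, and the windows of Lss, Sc5d and Cyp51 held none. Among the 24 genes with a window, the sterol core was found for 2 (Msmo1 and Srebf2), and 3.89% of all 33469 windows held it. The longer sterol element was found for 0, and 1.12% of all windows held it. GC boxes were found for 20 of 24 genes (33.1% of all windows) and CCAAT for 17 of 24 (37.5% of all windows). CACGTG was found for 4 of 24 genes, Abca1, Insig1, Sc5d and Scap (6.42% of all windows). A gene counts when any of its windows holds the motif, and some genes have more than 1. The gene counts and window percentages are therefore not the same measure. A match is a run of letters only, and its absence from a window says nothing about the factor.

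Levels are FPKM, a read density corrected for transcript length and for the size of the library, so genes can be compared per length. Across the 9 libraries FPKM sums ran between 563643 and 589838, and correlations of log2(FPKM + 1) were 0.969 to 0.989 within groups and 0.922 to 0.987 between groups. Kidney segment markers were present in all groups, but they differed between libraries. The mean log2(FPKM + 1) of late proximal tubule markers was 5.44, 3.38 and 3.87 in treated SHR, against 5.46, 5.67 and 5.03 in SHR and 6.48, 5.35 and 6.38 in WKY. Collecting duct markers ran the other way, at 7.16, 7.58 and 8.02 in treated SHR, against 6.56, 6.52 and 6.85 in SHR and 5.60, 6.40 and 5.83 in WKY. In whole kidney, fewer cells of a type and less RNA per cell cannot be told apart.

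Most of the pathway was expressed at a moderate level in all 3 groups. Me1, the malic enzyme that supplies NADPH for lipid synthesis, had the highest group mean in every group, at 55.7 ± 20.4 FPKM in treated SHR, against 61.4 ± 1.79 FPKM in SHR and 66.1 ± 12.7 FPKM in WKY (SD, n = 3 each). Within the 28 genes, the ratio of the highest to the lowest library was smallest for Insig2 (1.24) and largest for Dhcr7 (4.13). Lss, lanosterol synthase, had a ratio of 2.01.

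**Figure D1:**
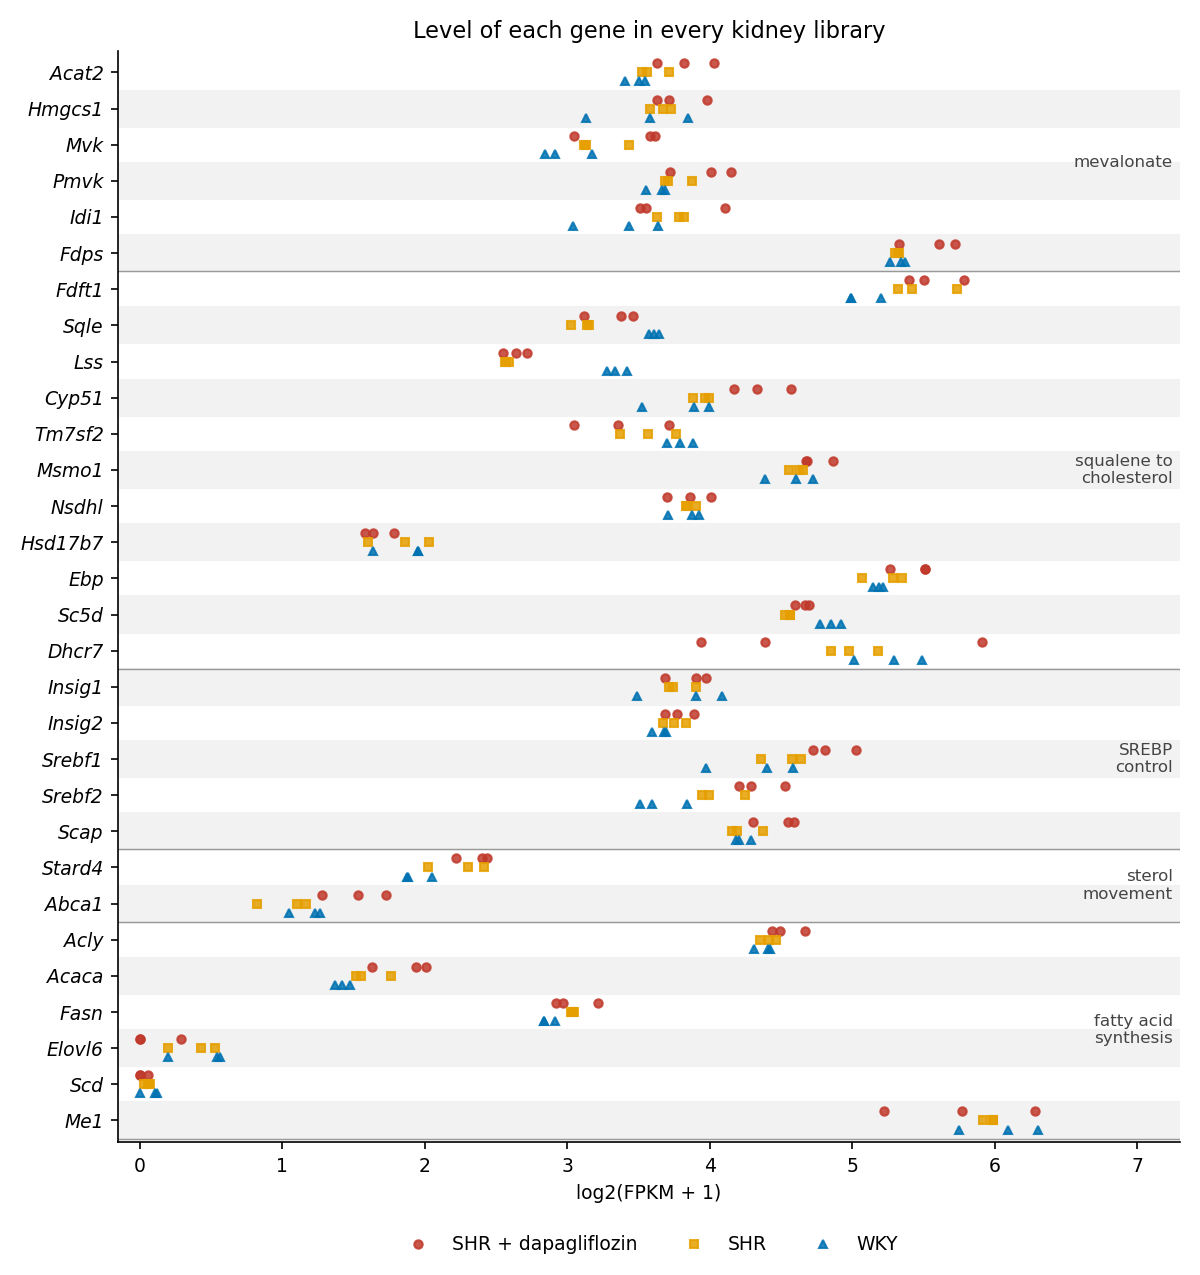
Level of each of the 30 genes with a row, in log2(FPKM + 1), with 1 point per library for treated SHR, SHR and WKY, grouped by role. The Lss points of both SHR groups lie below all 3 WKY points, and Dhcr7 in treated SHR spans 14.3 to 59.2 FPKM.

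Tests used limma on log2(FPKM + 1) over all 13127 genes that passed the filter, and a gene was called at a Benjamini-Hochberg adjusted p under 0.05. In treated SHR against SHR, 0 of 28 members were called, where the background was 0% of all genes, and 4 of 28 (14.3%) had an unadjusted p under 0.05, against 15.2% of all genes. In SHR against WKY, 2 of 28 (7.14%) were called, both lower, where the background was 2.96% of all genes and 1.12% for lower calls. In treated SHR against WKY, 7 of 28 (25.0%) were called, 6 higher and 1 lower, where the background was 22.9% of all genes, 16.8% for higher and 6.09% for lower calls, so that share is near the background. At an unadjusted p under 0.05 there were 6 of 28 (21.4%) in SHR against WKY, against 19.5% of all genes, and 16 of 28 (57.1%) in treated SHR against WKY, against 40.2% of all genes. Groups did not overlap for 7 of 28 members in SHR against WKY, where 28.4% of all genes did not, and for 16 of 28 in treated SHR against WKY, where 38.6% of all genes did not. Means were higher for 21 of 28 members in treated SHR against SHR (57.4% of all genes), for 18 in SHR against WKY (64.1%) and for 21 in treated SHR against WKY (64.6%).

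The contrast of treated SHR with WKY differs in both strain and drug. Its median change over all genes was 0.11 on the log2 scale as deposited and -0.01 after median-of-ratios scaling, so called changes in it are also given relative to that median. Over all genes, calls in SHR against WKY were 241 higher and 147 lower as deposited, and 221 higher and 207 lower with median-of-ratios scaling. In treated SHR against WKY they were 2211 higher and 799 lower as deposited, and 1448 higher and 1222 lower with that scaling. Of the members, median-of-ratios scaling called 3 in SHR against WKY, all lower, where the background was 3.26%, and 5 in treated SHR against WKY, 2 higher and 3 lower, where it was 20.3%. Without the first treated library, treated SHR against WKY had 14 members called, where the background was 36.5%. Treated SHR against SHR then had 1, where the background was 6.32% instead of 0%. On the first principal component, the main axis of difference between libraries, that library lay at 4.71. The other treated libraries lay at 31.56 and 42.48, and SHR at 5.98, -1.76 and 10.13.

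**Figure D2:**
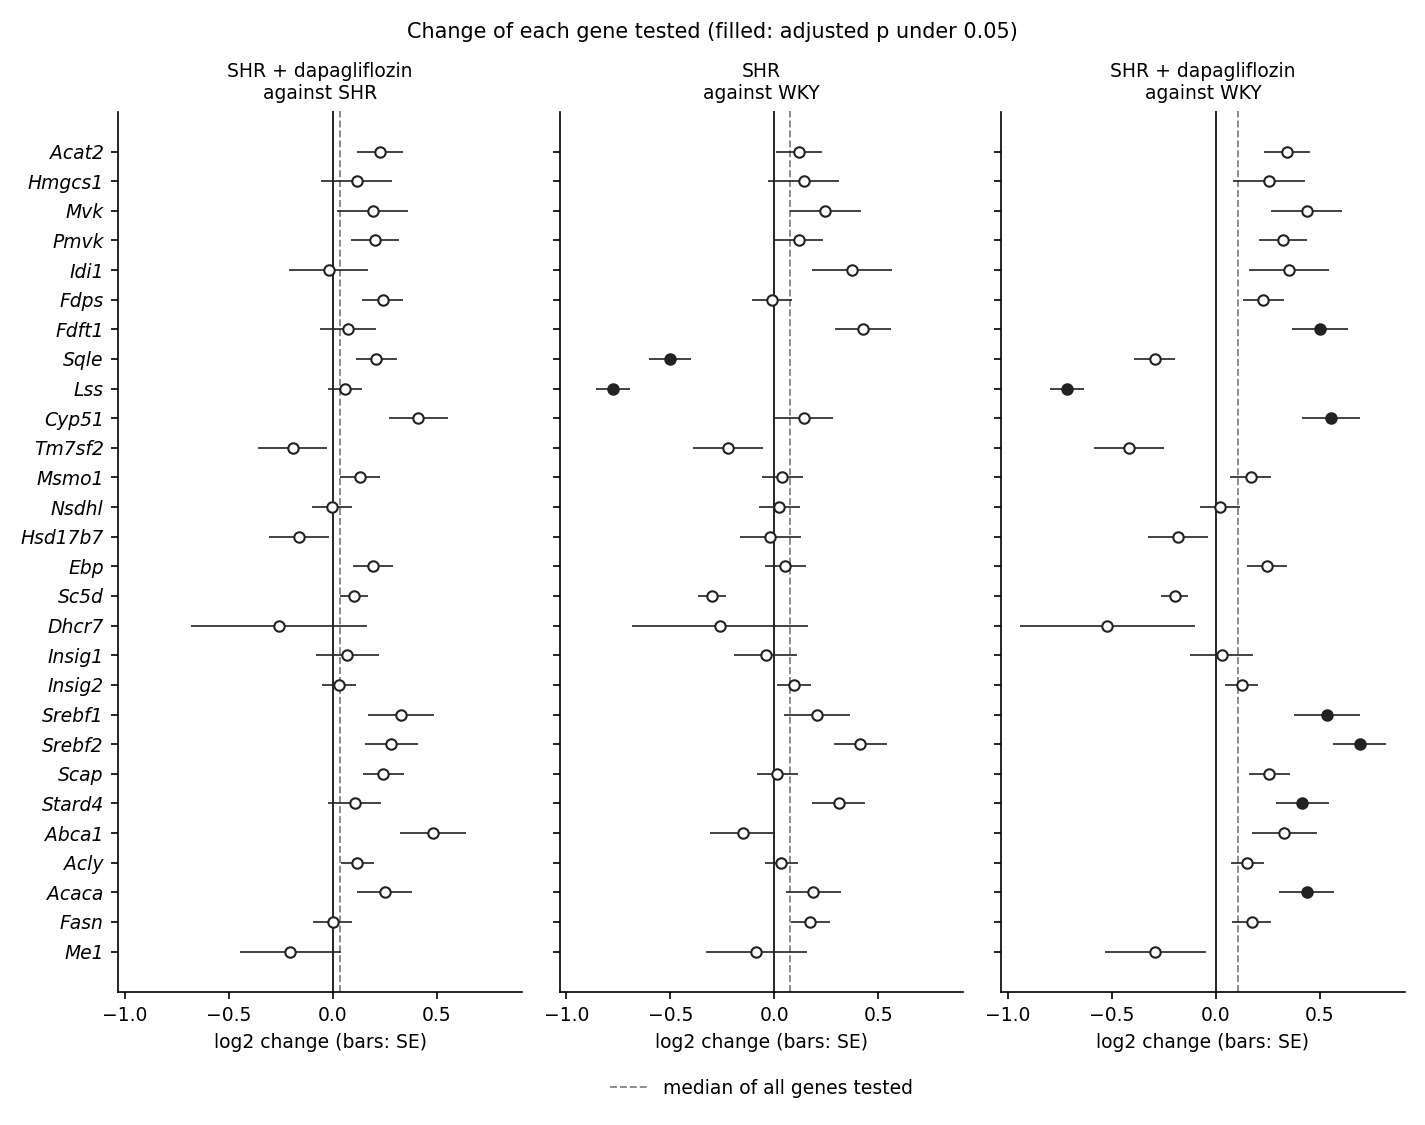
Log2 change of each of the 28 tested genes with its standard error in 3 contrasts, with filled points called by limma and the dashed line at the median of all genes. The left panel has no filled point, the middle panel has Sqle and Lss, and the right panel has 7.

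The squalene-to-cholesterol segment held both members called between the strains. Lss folds oxidised squalene into lanosterol, the first sterol. It measured 5.57, 4.85 and 5.23 FPKM in treated SHR, against 4.93, 5.04 and 4.91 FPKM in SHR and 9.12, 8.73 and 9.73 FPKM in WKY. All 6 SHR libraries were below all 3 WKY libraries. Lss was lower in SHR than in WKY by a log2 change of -0.77 (SE 0.08, limma adjusted p = 0.00165), and lower in treated SHR than in WKY by -0.71 (SE 0.08, adjusted p = 0.00173, or -0.82 relative to the median of all genes). Between treated SHR and SHR, its log2 change was 0.06 (SE 0.08, adjusted p = 0.750).

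Sqle, squalene epoxidase, makes the substrate of Lss. It measured 10.0, 7.67 and 9.38 FPKM in treated SHR, against 7.16, 7.83 and 7.90 FPKM in SHR and 10.9, 11.2 and 11.5 FPKM in WKY. The WKY libraries did not overlap either SHR group, and the 2 SHR groups overlapped. Sqle was lower in SHR than in WKY by a log2 change of -0.50 (SE 0.10, limma adjusted p = 0.0325), while treated SHR against WKY gave -0.29 (adjusted p = 0.0626, or -0.40 relative to the median of all genes). The call in SHR against WKY was lost in 8 of 18 other settings, among them leaving out any 1 SHR or WKY library.

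Sc5d, the desaturase that makes dehydrocholesterol late in the pathway, had 25.0, 23.2 and 24.4 FPKM in treated SHR, against 22.7, 22.6 and 22.0 FPKM in SHR and 29.4, 26.4 and 27.9 FPKM in WKY. No SHR library of either group reached the WKY range. Its change in SHR against WKY, -0.30 (SE 0.07, limma adjusted p = 0.0507), missed the threshold. It passed in 5 of 18 other settings, among them median-of-ratios scaling, and stayed uncalled in the other 13, with an adjusted p of 0.052 to 0.183 when any 1 SHR or WKY library was left out.

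Fdft1, squalene synthase, joins farnesyl units just upstream of Sqle, and measured more in both SHR groups than in WKY. It measured 54.2, 44.5 and 41.3 FPKM in treated SHR, against 41.7, 52.3 and 39.0 FPKM in SHR and 30.9, 30.9 and 35.9 FPKM in WKY. Both SHR groups lay above the WKY range. The log2 change of treated SHR against WKY was 0.50 (SE 0.14, limma adjusted p = 0.0330, or 0.39 relative to the median of all genes), and that of SHR against WKY was 0.43 (SE 0.14, adjusted p = 0.149), which was not called. The call against WKY was lost with median-of-ratios scaling and in 12 of 18 other settings in all, among them leaving out any 1 WKY library, SHR replicate 1 or treated replicate 2 or 3. The ratio of Fdft1 to Lss within a library does not depend on scaling. It was 9.74, 9.18 and 7.89 in treated SHR, against 8.47, 10.4 and 7.94 in SHR and 3.39, 3.54 and 3.69 in WKY. The ratio of Msmo1, a methyl sterol oxidase after lanosterol, to Lss was 4.97 ± 0.50 in treated SHR, against 4.73 ± 0.134 in SHR and 2.49 ± 0.176 in WKY (SD, n = 3 each), and no ratio of the SHR groups fell in the WKY range. Fdft1 and Lss had the highest and lowest change of all members in SHR against WKY. Both ratios contain Lss, so they restate its difference and are not separate evidence.

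Cyp51 demethylates lanosterol, the product of Lss. It measured 17.0, 19.1 and 22.8 FPKM in treated SHR, against 14.9, 14.6 and 13.7 FPKM in SHR and 10.5, 13.8 and 15.0 FPKM in WKY. All treated libraries were above all others, and SHR and WKY overlapped. Cyp51 was higher in treated SHR than in WKY by a log2 change of 0.56 (SE 0.14, limma adjusted p = 0.0266, or 0.45 relative to the median of all genes). Against SHR the change was 0.41 (SE 0.14, adjusted p = 0.285), and it was not called. The call against WKY was lost in 6 of 18 other settings, among them only the 2 groups compared (limma adjusted p = 0.0706). The others were leaving out WKY replicate 1 or 3 or treated replicate 2 or 3, and a marker covariate given below.

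**Figure D3:**
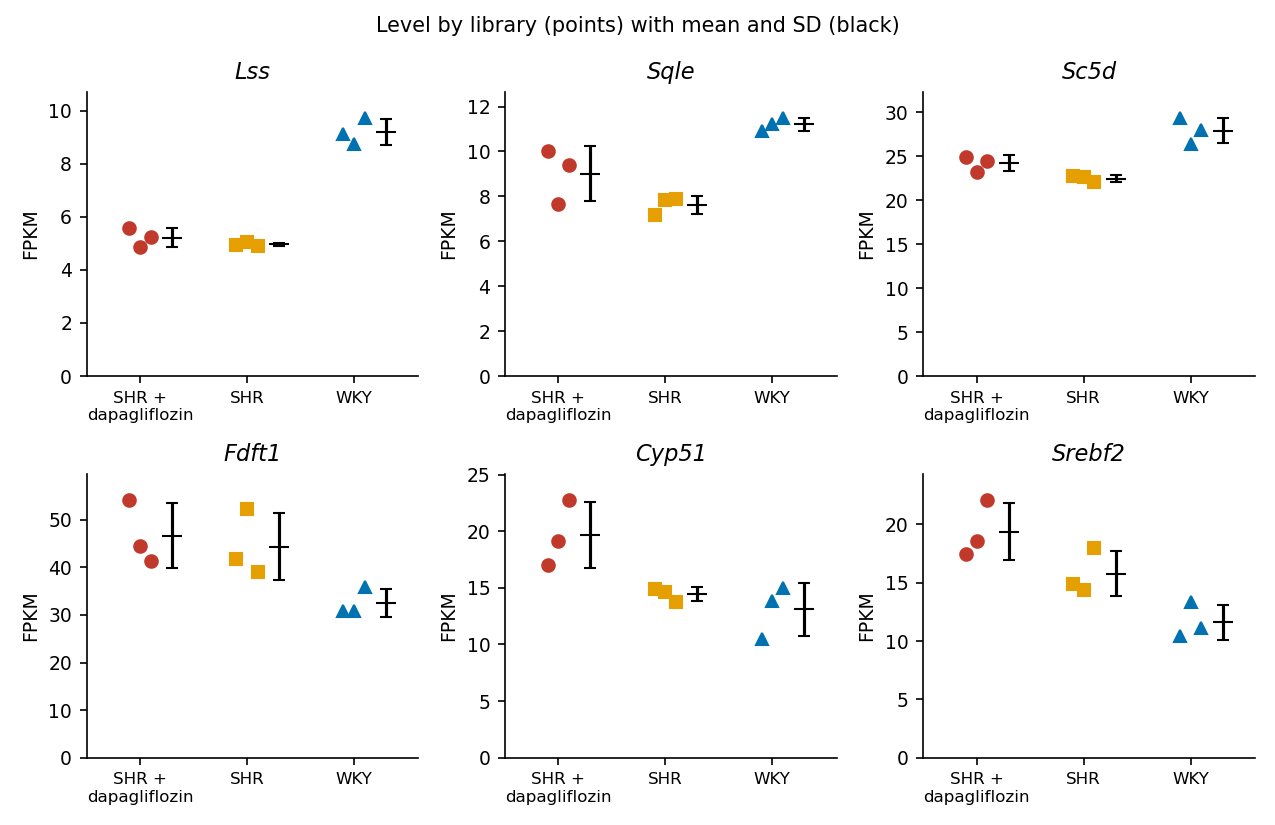
Level in FPKM of 6 genes in each library (points) with the group mean and SD (black), for treated SHR, SHR and WKY. The Lss, Sqle and Sc5d points of both SHR groups lie below those of WKY, those of Fdft1 and Srebf2 lie above, and the highest Cyp51 points are from treated SHR.

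Dhcr7, the reductase that finishes cholesterol, was spread more than any other member. It measured 59.2, 14.3 and 19.9 FPKM in treated SHR, against 28.0, 35.3 and 30.5 FPKM in SHR and 38.2, 31.3 and 44.1 FPKM in WKY. The first treated library was the highest of all 9 and the other 2 were the lowest. Its change in treated SHR against SHR was -0.26 (SE 0.42, limma adjusted p = 0.790); without that library it was -0.84 (adjusted p = 0.0386), the 1 member called then, where the background was 6.32% of all genes. The 2 low libraries also had the lowest late proximal marker means, 3.38 and 3.87, and the part of these cells in the result was not tested. Tm7sf2, which reduces an early sterol double bond, gave 12.2, 7.27 and 9.26 FPKM in treated SHR, against 9.34, 12.6 and 10.9 FPKM in SHR and 13.7, 12.8 and 12.0 FPKM in WKY. It was not called in any contrast.

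Of the other 4 genes of this segment, Msmo1, Nsdhl, Hsd17b7 and Ebp, none was called. Msmo1 ran between 20.0 and 28.2 FPKM over the 9 libraries and Ebp, the sterol isomerase, between 32.6 and 44.7 FPKM. Nsdhl, a decarboxylating dehydrogenase, stayed within 12.0 to 15.1 FPKM, and Hsd17b7, a keto reductase, within 2.0 to 3.08 FPKM. Of the 11 genes in the segment, 2 were called lower in SHR against WKY, and in treated SHR against WKY 2 were called higher and 1 lower. The background was 1.12% for lower calls in SHR against WKY, and 16.8% for higher and 6.09% for lower calls in treated SHR against WKY, so that the 3 of 11 called in the last contrast (27.3%) are near the 22.9% of all genes.

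Upstream, the mevalonate segment (Acat2, Hmgcs1, Mvk, Pmvk, Idi1 and Fdps) had no call in any contrast. The background was 0% of all genes in treated SHR against SHR, 2.96% in SHR against WKY and 22.9% in treated SHR against WKY. In the last contrast 4 of the 6 (66.7%) had an unadjusted limma p under 0.05, against 40.2% of all genes. That count was 1 of 6 in treated SHR against SHR (15.2% of all genes) and 0 of 6 in SHR against WKY (19.5%). Hmgcs1, which makes HMG-CoA, ran between 7.77 and 14.8 FPKM over the 9 libraries, and Idi1, the isopentenyl isomerase, between 7.24 and 16.3 FPKM. The kinases Mvk and Pmvk, which phosphorylate mevalonate and its phosphate, ran between 6.19 and 11.3 FPKM and between 10.8 and 16.8 FPKM. In these 4 genes treated SHR overlapped SHR. Acat2, the cytosolic thiolase, measured 11.4, 13.1 and 15.4 FPKM in treated SHR, against 10.5, 12.1 and 10.8 FPKM in SHR and 9.60, 10.7 and 10.3 FPKM in WKY. Fdps, which makes farnesyl diphosphate, measured 47.9, 39.3 and 51.9 FPKM in treated SHR, against 38.9, 39.2 and 38.5 FPKM in SHR and 37.6, 39.6 and 40.4 FPKM in WKY. Fdps in treated SHR lay above the SHR range by a narrow margin, with a log2 change of 0.24 (limma adjusted p = 0.314). All 6 means were higher in treated SHR than in WKY, where 64.6% of all genes were higher as deposited. The count of 6 was the same with median-of-ratios scaling and with quantile normalization. The median change was 0.33 as deposited and 0.21 with median-of-ratios scaling, against 0.11 and -0.01 for all genes.

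Among the SREBP genes, Srebf2, which encodes the main activator of sterol genes, measured 17.5, 18.5 and 22.1 FPKM in treated SHR, against 14.9, 14.4 and 18.0 FPKM in SHR and 10.4, 13.3 and 11.1 FPKM in WKY. The WKY libraries were below every SHR library, and treated SHR overlapped SHR. Srebf2 was higher in treated SHR than in WKY by a log2 change of 0.69 (SE 0.13, limma adjusted p = 0.0111, or 0.58 relative to the median of all genes). SHR against WKY gave 0.41 (SE 0.13, adjusted p = 0.137) and treated SHR against SHR gave 0.28 (adjusted p = 0.338), and neither was called. The call against WKY was lost in 2 of 18 other settings, without WKY replicate 3 and with a marker covariate given below. The sterol core shown in capitals in its promoter window is the 1 match among the 4 windows printed.

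Srebf1, the activator tied more to fatty acid genes, measured 31.6, 25.5 and 27.0 FPKM in treated SHR, against 22.9, 23.9 and 19.6 FPKM in SHR and 14.7, 20.2 and 23.0 FPKM in WKY. Every treated library was above all others. It was higher in treated SHR than in WKY by 0.53 (SE 0.16, limma adjusted p = 0.0421, or 0.42 relative to the median of all genes), and treated SHR against SHR gave 0.33 (SE 0.16, adjusted p = 0.356). The call against WKY was lost in 15 of 18 other settings, among them median-of-ratios scaling and leaving out any 1 of the 9 libraries. Scap, the escort protein, had 18.7, 22.5 and 23.2 FPKM in treated SHR, against 16.9, 17.3 and 19.7 FPKM in SHR and 17.4, 18.6 and 17.2 FPKM in WKY, with no call. Insig1, which retains the SREBP complex and is itself a sterol-regulated gene, measured 14.0, 11.9 and 14.8 FPKM in treated SHR, against 12.2, 14.0 and 12.4 FPKM in SHR and 10.3, 14.0 and 16.0 FPKM in WKY. Its groups overlapped in every pair. Insig2, its relative, measured 13.8, 12.7 and 11.9 FPKM in treated SHR, against 13.2, 12.5 and 11.8 FPKM in SHR and 12.0, 11.8 and 11.1 FPKM in WKY, also without a call.

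Of the genes that move sterol, Stard4, a cytosolic sterol carrier, measured 3.66, 4.42 and 4.30 FPKM in treated SHR, against 3.95, 4.34 and 3.06 FPKM in SHR and 2.68, 2.69 and 3.15 FPKM in WKY. It was higher in treated SHR than in WKY by a log2 change of 0.42 (SE 0.13, limma adjusted p = 0.0462, or 0.31 relative to the median of all genes). The treated libraries were above the WKY range, and SHR overlapped it. The call was lost in 13 of 17 other settings, among them median-of-ratios scaling and leaving out any 1 WKY library, SHR replicate 1 or 2, or treated replicate 2 or 3. Abca1, which exports cholesterol to apolipoprotein, measured 1.43, 1.89 and 2.32 FPKM in treated SHR, against 1.15, 0.77 and 1.25 FPKM in SHR and 1.07, 1.41 and 1.35 FPKM in WKY. Every treated library was above every other library. It had the smallest p of all members in treated SHR against SHR, with a change of 0.48 (SE 0.16, limma adjusted p = 0.285), which was not called. In that contrast 6 of 28 members had groups that did not overlap, all higher in treated SHR, against 12.6% of all genes for higher and 19.0% for either direction.

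All 7 collecting duct markers were called higher in treated SHR against WKY. Srebf2 was lowest in the WKY library with the lowest marker mean (5.60) and highest in the treated library with the highest (8.02). Over all 9 libraries Srebf2 rose in the order of that mean, with an exception. SHR replicate 3 (6.85) had 18.0 FPKM and treated replicate 1 (7.16) had 17.5 FPKM. Cyp51 was lowest and highest in the same WKY and treated libraries as Srebf2. Over the 6 undosed libraries Cyp51 did not keep that order: SHR replicate 3 had a marker mean of 6.85 and 13.7 FPKM, and WKY replicate 3 had 5.83 and 15.0 FPKM. Lss was lowest within treated SHR, within SHR and within WKY in the library with the lowest late proximal mean of that group (3.38, 5.03 and 5.35), at 4.85, 4.91 and 8.73 FPKM. Within WKY, replicate 1 had the highest mean (6.48) and 9.12 FPKM, and replicate 3 (6.38) had 9.73 FPKM. Between groups the order was not kept. Treated replicate 1 (5.44), SHR replicate 1 (5.46) and SHR replicate 2 (5.67) had 5.57, 4.93 and 5.04 FPKM, below the 8.73 FPKM of WKY replicate 2 (5.35). The part of these cell types in the differences between groups was not tested. The difference of proximal tubule and podocyte marker means was 0.713, 1.265 and -0.076 in treated SHR, against 1.879, 1.859 and 0.785 in SHR and 3.043, 2.329 and 2.625 in WKY. No WKY value fell in the range of either SHR group. In contrasts with WKY, this covariate and the group therefore cannot be fully told apart. With this difference as a covariate, Lss in SHR against WKY was -0.79 (SE 0.12, limma adjusted p = 0.0446), and it was the 1 member called, where 72 of all genes (0.548%) were. In treated SHR against WKY, 0 of the 28 members were called by limma with that covariate, where 27 of all genes (0.206%) were, and Lss had a change of -0.74 (SE 0.17, adjusted p = 0.430). With the covariate, the log2 change in that contrast was 0.18 for Srebf2 (0.69 without it) and 0.29 for Cyp51 (0.56 without it). It was 0.51 for Srebf1 and 0.41 for Acaca (0.53 and 0.44 without it). It was 0.78 for Fdft1 and 0.67 for Stard4 (0.50 and 0.42 without it). The SE with the covariate was 0.175 for Srebf2, 0.282 for Cyp51 and 0.270 for Fdft1, each larger than without it. The limma adjusted p with it was 0.959 for Fdft1 and 0.9989 for each of the others, so these shifts are not resolved.

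**Figure D4:**
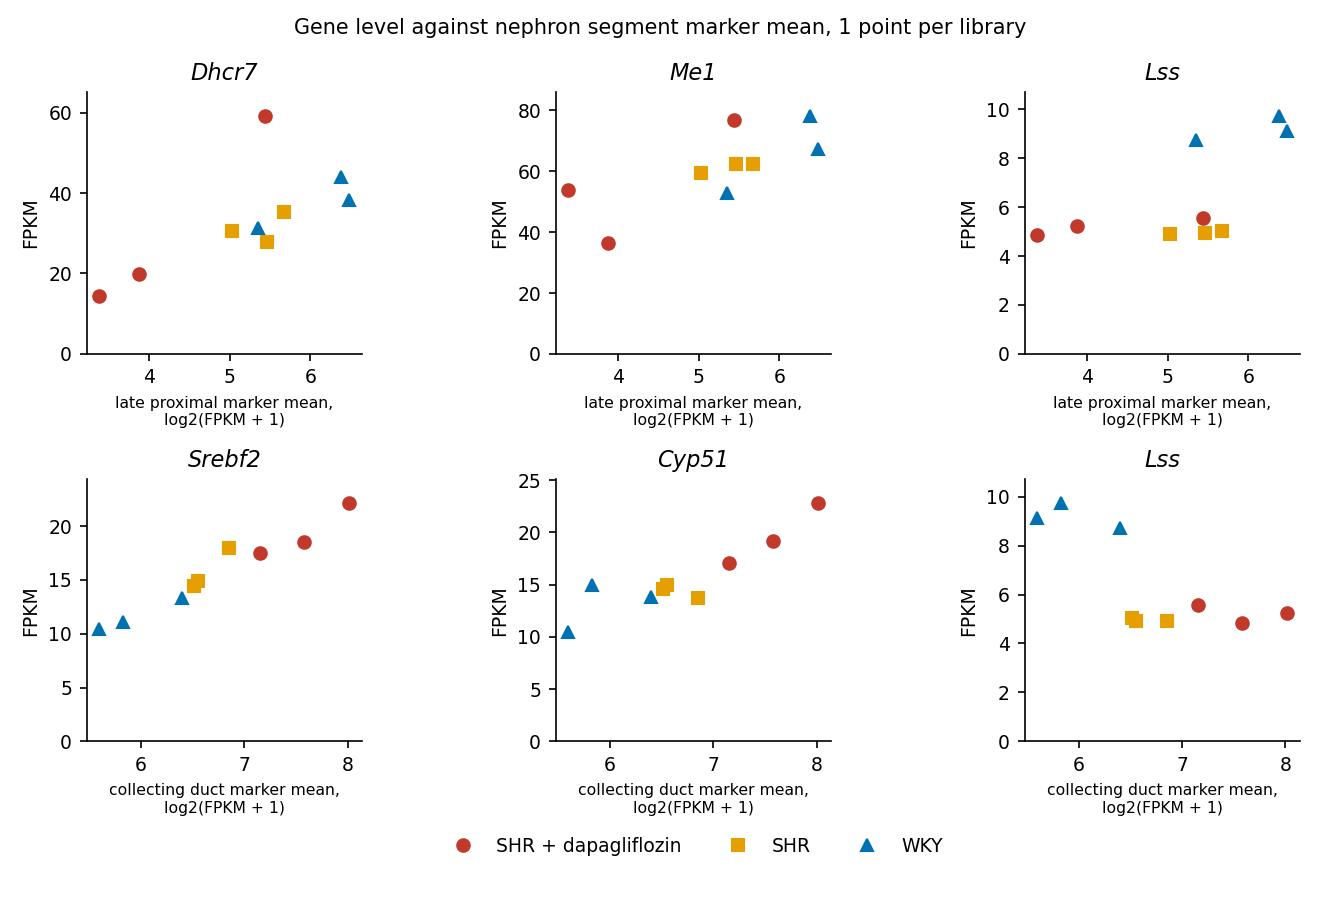
Level in FPKM (vertical) of Dhcr7, Me1, Lss, Srebf2 and Cyp51 against the mean log2(FPKM + 1) of late proximal or collecting duct markers (horizontal), with 1 point per library. Srebf2 and Cyp51 are highest in the treated library with a collecting duct mean of 8.02, and all Lss points of WKY lie above those of both SHR groups.

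Fatty acid synthesis was expressed unevenly in these kidneys. Acaca, the carboxylase that makes malonyl-CoA, measured 2.09, 2.84 and 3.03 FPKM in treated SHR, against 2.39, 1.86 and 1.93 FPKM in SHR and 1.67, 1.78 and 1.59 FPKM in WKY. Both SHR groups lay above the WKY range. It was higher in treated SHR than in WKY by a log2 change of 0.44 (SE 0.13, limma adjusted p = 0.0441, or 0.33 relative to the median of all genes). The call was lost in 14 of 17 other settings, among them median-of-ratios scaling and leaving out any 1 library other than treated replicate 1. Fasn, the synthase itself, measured 8.29, 6.83 and 6.58 FPKM in treated SHR, against 7.14, 7.26 and 7.21 FPKM in SHR and 6.16, 6.14 and 6.53 FPKM in WKY. It also lay above the WKY range in both SHR groups, but was not called. Acly, which makes cytosolic acetyl-CoA from citrate, measured 24.5, 21.5 and 20.6 FPKM in treated SHR, against 21.2, 20.4 and 19.5 FPKM in SHR and 20.4, 18.9 and 20.2 FPKM in WKY, with no call.

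Me1 had a ratio of highest to lowest library of 2.15. It measured 77.0, 53.7 and 36.3 FPKM in treated SHR, against 62.4, 62.5 and 59.4 FPKM in SHR and 67.2, 52.8 and 78.2 FPKM in WKY. The groups overlapped and no contrast was called. Scd, the stearoyl-CoA desaturase, was listed at 0.04, 0 and 0 FPKM in treated SHR, against 0.04, 0.02 and 0.05 FPKM in SHR and 0, 0.09 and 0.08 FPKM in WKY. Elovl6, an elongase, was listed at 0.22, 0 and 0 FPKM in treated SHR, against 0.35, 0.44 and 0.15 FPKM in SHR and 0.46, 0.15 and 0.48 FPKM in WKY. Both were near 0 in every library, and no fold is given for them. Adipose tissue makes fatty acids too. Of the adipocyte markers, Retn was at 0 in all 9 libraries, and Lep and Plin4 did not pass 0.10 FPKM, while Adipoq had 9.97 to 18.9 FPKM and Cidec, the largest part of the sum in most libraries, 11.9 to 67.5 FPKM. Fabp4 was called lower in treated SHR against WKY by limma, at 0.263 ± 0.081 FPKM in treated SHR and 2.01 ± 1.05 FPKM in WKY, and Plin1, under the filter, measured 0.133 ± 0.095 FPKM in treated SHR and 0.66 ± 0.104 FPKM in WKY (SD, n = 3 each). Adipoq went the other way, with 14.6, 15.3 and 18.9 FPKM in treated SHR, against 10.8, 10.7 and 11.7 FPKM in SHR and 9.97, 12.9 and 13.2 FPKM in WKY. Of the 4 adipocyte markers tested in treated SHR against WKY, 2 means were higher and 2 lower, and Fabp4 was the 1 called. The summed adipocyte markers ran between 31.9 and 84.5 FPKM in treated SHR, against 53.2 to 69.7 FPKM in SHR and 43.2 to 66.7 FPKM in WKY.

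A wider list of 54 genes of sterol and lipid handling, 52 of them tested, had 0 calls by limma in treated SHR against SHR, where 7 (13.5%) had an unadjusted p under 0.05, against 15.2% of all genes. It had 0 calls in SHR against WKY, where the background was 2.96%, and 12 (23.1%) had an unadjusted p under 0.05, against 19.5% of all genes. In treated SHR against WKY, 23 of 52 (44.2%) were called, 17 higher and 6 lower, where the background was 22.9% of all genes, 16.8% for higher and 6.09% for lower calls. Soat1, which esterifies cholesterol for storage, measured 25.8, 37.7 and 41.0 FPKM in treated SHR, against 22.4, 19.8 and 21.7 FPKM in SHR and 14.2, 17.4 and 16.7 FPKM in WKY. It was higher in treated SHR than in WKY by a log2 change of 1.05 (SE 0.16, limma adjusted p = 0.0064, or 0.94 relative to the median of all genes). Lbr, a nuclear envelope protein with the same sterol reductase activity as Tm7sf2, was lower, with 4.55 ± 0.180 FPKM in treated SHR, against 4.94 ± 0.316 FPKM in SHR and 6.75 ± 0.648 FPKM in WKY (SD, n = 3 each) and a change of -0.48 (limma adjusted p = 0.0132, or -0.59 relative to the median). Scarb1, a lipoprotein receptor, Npc1, which exports cholesterol from lysosomes, and Cyp27a1, which makes an oxysterol, were higher in that contrast, by log2 changes of 0.86, 0.64 and 0.99, or 0.75, 0.53 and 0.88 relative to the median. Scd2, a desaturase related to Scd, measured 40.4, 64.1 and 78.9 FPKM in treated SHR, against 44.3, 33.7 and 30.5 FPKM in SHR and 8.64, 34.1 and 21.5 FPKM in WKY. It was higher in treated SHR than in WKY by 1.61 (SE 0.43, limma adjusted p = 0.0319, or 1.5 relative to the median). Nr1h3, the oxysterol receptor that drives Abca1, was lower, with a change of -0.53 (limma adjusted p = 0.0255, or -0.64 relative to the median). Acacb, Mylip, Lpin1, Mid1ip1, Mcat, Faxdc2, Rnf145, Aacs and Acat1 were also called higher, and Erg28, Thrsp, Mlxipl and Erlin1 lower. With the proximal and podocyte covariate, Soat1, Lbr, Scarb1, Npc1, Cyp27a1 and Nr1h3 were not called. In that covariate WKY did not overlap either SHR group.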

How the data were processed

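Libraries were made from kidney total RNA and read from a single end over 50 bases on a BGI sequencer, per the labels' protocols. The submitters' processing notes name HISAT2 2.0.4, Bowtie2 2.2.5 and the build Rnor_6.0, without saying what each tool did. The authors deposited FPKM values, per the file headers, in 1 column for each library. Neither the program behind them nor its annotation was given in the sources used here. Low values did not fall on whole multiples, so the depth is unknown and no counts were recovered. FPKM is scaled to each library, so abundant transcripts shift all others, and near-identical copies can exchange reads.

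From these values, log2(FPKM + 1) was computed with a pseudocount of 1. The filter kept a gene when 3 or more libraries had FPKM of 1 or higher, which left 13127 genes. Limma 3.58.1 in R 4.3.3 fitted group means over all 9 libraries with 6 residual degrees of freedom, and p-values were two-sided and Benjamini-Hochberg adjusted over all genes kept. The code was tested on simulated data. Python 3.11.15, numpy 2.4.6, pandas 2.3.3 and matplotlib 3.10.9 made the tables and plots. Promoter windows are from RefSeq GRCr8, which was used for those windows only.

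The members, gene lists, motifs and tests were chosen with earlier results of these data known. Values in every library are given for members called in any contrast, the 3 members with the smallest p in each contrast and a set of named regulators and lipogenic enzymes; other pathway genes are named only where called, and some of those are not reported here. Equal replicate numbers were not treated as pairs in the main fit. Other pseudocounts, filters, scalings, sample sets, a replicate block and a tissue covariate were tried.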

Additional observations from a re-analysis of the deposited data

How the results depend on the processing

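Each contrast was recomputed under 18 other settings. The number of members called in treated SHR against SHR was 0 in all of them except leaving out 1 library at a time, which gave 0 to 1. In SHR against WKY the number was 2, where 388 of 13127 genes were called. It became 1 with a replicate block (282 of all genes) and 1 with the proximal and podocyte marker covariate (72). It became 3 without the filter on low values (389 of 19367 genes) and with a filter of FPKM at least 5 (301 of 9802). It was also 3 with median-of-ratios scaling (428 of 13127 genes) and with quantile normalization (412). Leaving out 1 library gave 1 to 3, where 167 to 626 of all genes were called. In treated SHR against WKY it was 7, where 3010 of 13127 genes were called. It became 4 without the filter on low values (2327 of 19367 genes) and 2 with only the groups compared (1026 of 13127 genes). It became 3 with a replicate block (2700 of 13127 genes) and 0 with the covariate (27). It became 5 with median-of-ratios scaling (2670 of all genes) and 5 with quantile normalization (2672 of all genes). Leaving out 1 library gave 1 to 14, where 593 to 4791 of all genes were called. The highest counts came without the first treated library, where 36.5% of all genes were called. The cause of these shifts was not tested. Correlations of deviations from group means between same-numbered libraries were -0.24, -0.21 and 0.18 in treated SHR and SHR, -0.33, -0.20 and -0.20 in SHR and WKY, and 0.46, 0.39 and 0.00 in treated SHR and WKY. Deviations from a mean of 3 libraries are not independent, so these values cannot decide whether the libraries were paired.

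In SHR against WKY, Lss was called in all 18 settings, with adjusted p between 0.00161 and 0.0446 by limma. With 3 libraries per group and unknown depth, small differences of weakly expressed genes such as Abca1, Scd and Elovl6 cannot be resolved.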
